A study of Mus musculus with 4 samples.

Results

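The regions described here are stretches of DNase I hypersensitive chromatin that were listed in untreated 7438 cells and in none of the 3 lists made from hormone-treated cells. The 4 deposited lists were merged, overlapping or touching regions were joined, and the merged regions that held a region of the untreated list only were taken as members. They numbered 26861 of 103288 merged regions (26.0%). By the same rule 14781 (14.3%) were listed after dexamethasone (Dex) alone, 7200 (6.97%) after estradiol (E2) alone and 11919 (11.5%) only when both hormones were given. The members were chosen by their presence in the lists, that is by the authors' calls in each library, so their number, densities and Z scores are given as descriptions. Where a region is unlisted after hormone, the lists give no value for it, so the state of its chromatin is not known from them. Positions are in mm9 as the lists print them, and the lists do not say whether they count from 0 or 1.

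DNase I cuts DNA most readily where nucleosomes have been moved aside, so hypersensitive sites mark promoters, enhancers and other stretches bound by regulatory proteins. The glucocorticoid receptor (GR) and the estrogen receptor (ER) are transcription factors that bind DNA after they take up their hormone. Both are known to occupy enhancers that are already open and to open further ones together with remodelling enzymes, and both can also lower the activity of other genes. Regions that are listed only before hormone are therefore where a loss of accessibility after hormone would be looked for.

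The 7438 line is a mouse mammary cell line in which a tetracycline-regulated promoter drives GFP-tagged GR and Cherry-tagged ER. All cells were plated 48 h before the experiment in serum stripped with charcoal and dextran, and tetracycline was withdrawn 24 h before hormone, so the untreated cells had both tagged receptors induced as well. The conditions were no hormone, 100 nM Dex (a synthetic GR ligand), 100 nM E2 (an ER ligand) and both hormones at 100 nM each, the latter 3 for 30 min, with 1 DNase-seq library per condition. With 1 library each, hormone and library cannot be told apart, and no p-value was computed.

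The lists held 65879 untreated, 51251 Dex, 35496 E2 and 50061 Dex+E2 regions. Each region carries the maximum density of sequence tags within it, on a scale the authors set per library, and a Z score. One step of the density scale, read as 1 tag at the summit, was 0.255 in the untreated library and 0.200 to 0.245 in the hormone libraries. Bounds in parentheses after a density come from an exact 95% Poisson interval on its summit tags, and those after a share from a 95% Wilson interval. Both cover counting error only.

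The members were weaker and narrower than the regions of all 4 lists. Their maximum density had a median of 5.61 (quartiles 4.59 and 7.40), or 22 tags at the summit, against 30.1 in the untreated library for the 20687 regions found in all 4 lists. Their median width was 396 bp, and 4007 of them (14.9%) had the shortest width that any list holds, 251 bp. The regions of all 4 lists had a median untreated width of 953 bp. Regions found in 1 hormone list alone were narrower than the members, with medians of 303 bp (Dex), 297 bp (E2) and 317 bp (Dex+E2), and 22.8%, 23.3% and 20.6% of them had the shortest width. Together the members covered 11.1 Mb, which is 24.5% of the length of the untreated list, although 26862 of its 65879 regions (40.8%, 40.4 to 41.2) lay in members. In all, 26860 members consisted of a single region, and 1 of a joined pair, chr4:59201438-59202290, with a density of 8.42.

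The Z scores of the members also lay close to the threshold of their list. They ran from 4.95, the lowest of the untreated list, to 31.1, with a median of 5.89. The hormone lists began at higher scores, between 5.15 (Dex+E2) and 5.26 (E2), and 5976 members (22.2%) had a Z score below the lowest of the E2 list. A Z score of at least 10 was held by 1949 members (7.26%) and a density of at least 10 by 2043 (7.61%). Only 25 members reached a density of 20, called strong here, a limit that 15827 of the 65879 untreated regions reached. The number of members depended on how the lists were limited: when only the 35496 densest regions of every list were kept, 5432 were in untreated alone, and with the denser 50% of every list there were 8643.

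**Figure D1:**
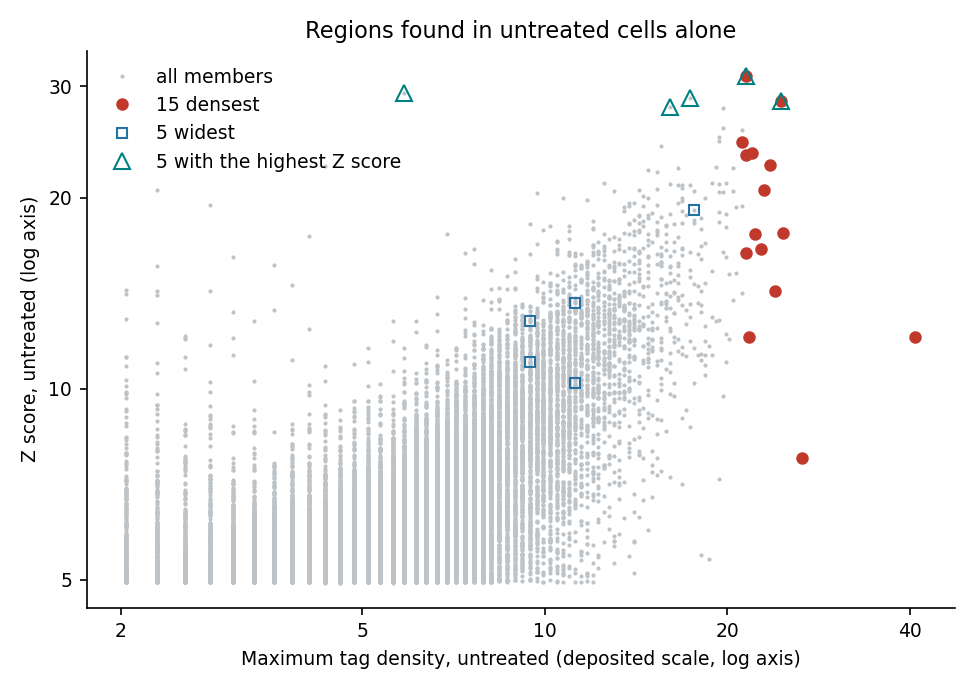
Maximum tag density (x, deposited scale, log axis) and Z score (y, log axis) of each of the 26861 members in the untreated library, with the 15 densest, the 5 widest and the 5 of highest Z score marked. Most points lie near the lower limit of 4.95, and the 2 densest members, at 40.8 and 26.5, have Z scores of 12.1 and 7.77.

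The untreated regions that were shared with 1 or 2 hormone lists lay between both extremes. The 4240 regions listed in untreated and Dex had a median untreated density of 8.67, the 3673 in untreated and Dex+E2 one of 8.42, and the 1220 in untreated and E2 one of 7.65. Regions missing from 1 hormone list only were denser, with 12.0 for the 6024 missing after E2, 10.7 for the 833 missing after Dex+E2 and 10.2 for the 1746 missing after Dex. At the same decile of density, members were narrower than the other untreated regions in each of the 8 deciles that held at least 20 members. The difference between the medians was 39 to 100 bp. In the lowest decile the widths were 279 and 379 bp, and in the eighth 703 and 794 bp. A wider region is more likely to overlap another, so width enters the rule itself and these differences are a description of what was chosen.

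Among regions with equally many tags at the summit, a larger share was found in 1 list alone in untreated cells than in any hormone list. At 31 to 40 tags, 3899 of 8855 untreated regions were found in no other list (44.0%, 43.0 to 45.1). The same was true of 11.9% of Dex regions (11.3 to 12.7), 15.1% of E2 regions (14.4 to 15.95) and 16.3% of Dex+E2 regions (15.5 to 17.1). At 41 to 50 tags the shares were 23.5% for untreated and 2.83%, 2.32% and 6.30% for Dex, E2 and Dex+E2. At 16 to 20 tags the lists lay closer together, with 84.9% for untreated and 76.0%, 63.5% and 70.9% for the others. Above 60 tags the untreated share was 0.947% (192 of 20279), against 0.0532% to 0.530% in the hormone lists. If all libraries were scaled to 1 common total, the untreated library was the shallowest, with the E2 library 1.28 times as deep. The untreated list was also the longest. Regions of each hormone list could overlap it, while untreated regions could overlap only the shorter hormone lists. The part of depth or list length in these shares was not tested.

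**Figure D2:**
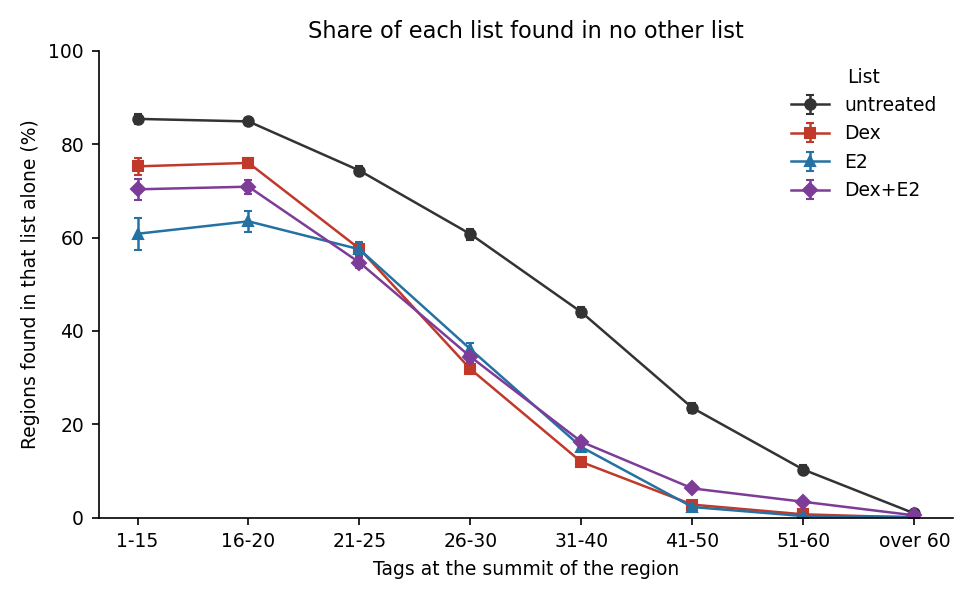
Share of the regions of each list that overlap no region of the other 3 lists (y, percent, with Wilson 95% intervals) by tags at the summit (x). The untreated curve lies above the others in every bin, at 44.0% against 11.9% to 16.3% for 31 to 40 tags.

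Of the 25 strong members, the 15 densest are described first. The densest, chr1:24560214-24560767, had a density of 40.8 (34.7 to 47.6) with a Z score of 12.1. Its nearest region in all 4 lists, 58.6 kb away at chr1:24619396-24620156, reached 5729 before hormone, against 2725 with Dex, 1166 with E2 and 1322 with both. That neighbour is not typical, since the regions of all 4 lists had a median untreated density of 30.1 and a 95th percentile of 115. The second, chr11:3166215-3166752, reached 26.5 (21.7 to 32.1) with a Z score of 7.77. These 2 members stood apart from the rest by a Z score of 0.295 and 0.293 per unit of density, where the other 23 strong members had at least 0.557 and the median member 1.09.

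Next came chr4:59412102-59412756 at 24.7 (20.1 to 30.2), whose nearest region in any hormone list lay 17.7 kb away. That neighbour, chr4:59393710-59394382, was as dense in untreated cells, at 25.2, and its hormone densities were 11.3 (Dex), 9.60 (E2) and 10.2 (both). A similar pair was chr11:83394140-83394931, at 24.5 with a Z score of 28.4, and its neighbour at 2.93 kb, chr11:83390324-83391212. The neighbour was at 31.6 before hormone and at 8.82 (Dex), 7.20 (E2) and 9.07 (both). In both pairs a member and a neighbour of not much higher untreated density were parted by the lists, the neighbour being kept in all of them.

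Other strong members lay beside denser regions that all lists held. At chr6:114891065-114891886 the density was 23.97, and the shared region 0.761 kb away had 65.0 before hormone, 25.7 with Dex, 23.997 with E2 and 28.6 with both. The member chr9:66950318-66951006 (23.5) lay 1.27 kb from a region of 80.9, 26.7, 23.6 and 31.3 in the same order. The member chr4:88686732-88687359 (21.7) lay 1.25 kb from one of 198, 62.2, 51.8 and 62.6, and chr11:117876920-117877621 (21.4) lay 2.41 kb from one of 78.8, 30.1, 27.4 and 44.5. At chr1:135641107-135641969 the order was the other way round. This member had a density of 23.0, and the shared region 4.55 kb away only 13.5 untreated, with 8.57, 6.60 and 7.03 after the hormones.

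Other strong members lay farther from listed regions. The region chr5:23065876-23066484 had the highest Z score of all members, 31.1, at a density of 21.4 (17.1 to 26.5). The closest hormone-list region lay 9.94 kb away at a density of 4.76, and the closest region of all 4 lists 20.7 kb away at 13.3 untreated. The members chr2:13306988-13308023 (21.9) and chr17:34724212-34724841 (22.2) lay 12.6 and 15.4 kb from any hormone-list region, and the shared region nearest to the latter reached 363 before hormone, 175 with Dex, 125 with E2 and 185 with both. The remaining ones among the 15 densest were chr11:98611705-98612693 (22.7), chr1:127584483-127585321 (21.4) and chr11:72234878-72235524, which was tied with 3 others at 21.2. Of the 25, 19 lay within 10 kb of a hormone-list region and 13 within 10 kb of a region of all 4 lists. Chromosome 11 held 6 of them, chromosome 4 held 4 and chromosome X none. In all 25 cases the nearest region of all 4 lists had its highest deposited density in the untreated library. The same held for 18637 of the 20687 regions of all 4 lists (90.1%).

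**Figure D3:**
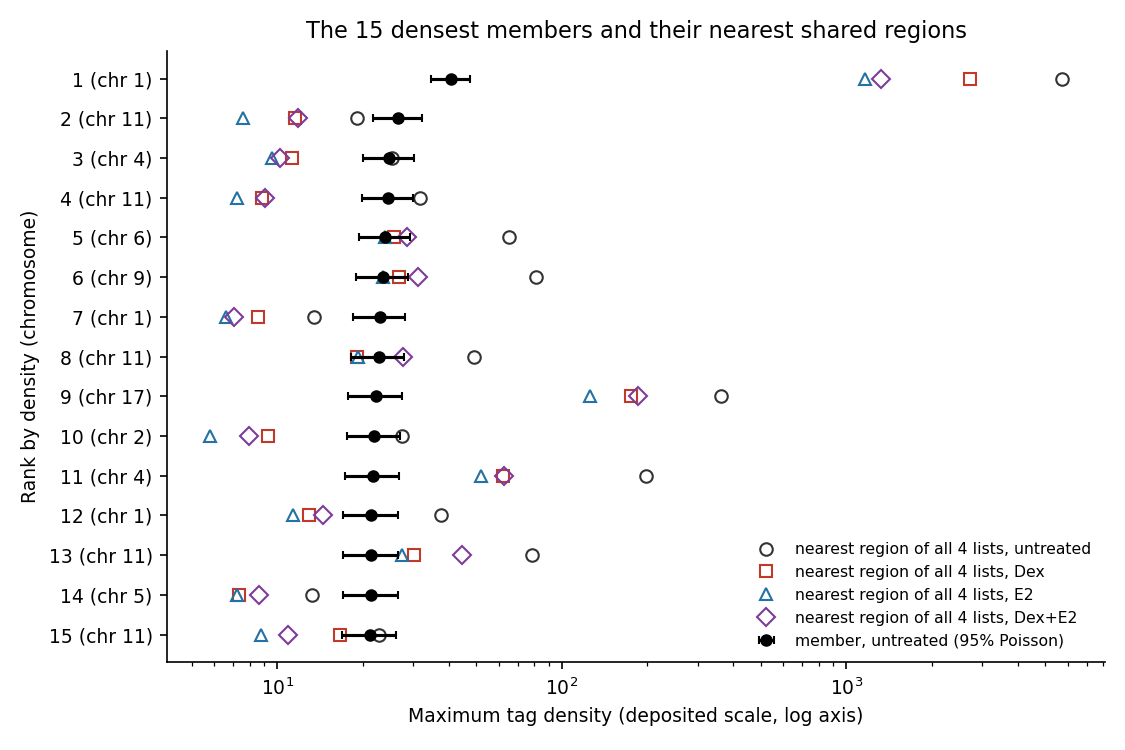
Maximum tag density (x, deposited scale, log axis) of the 15 densest members in untreated cells (filled points with Poisson 95% intervals) and of the nearest region found in all 4 lists (open symbols, by library); y gives the rank and the chromosome. The members lie between 21.2 and 40.8, and the untreated density of the neighbour lies above its hormone densities in each row.

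The widest members formed an extended stretch on chromosome 13. The members chr13:111190595-111194331 (3736 bp, density 11.2) and chr13:111187622-111190333 (2711 bp, 9.44) were separated by 262 bp, and a further member of 462 bp (6.89) lay 96 bp before them. Directly before that, 39 bp away, ended a region found in all lists, which was 2717 bp wide in untreated cells with a density of 34.2. The same region was 1284 bp wide after Dex (19.3), with a second piece of 436 bp, 1226 bp after E2 (9.80) and 1262 bp after Dex+E2 (13.8). The untreated list thus ran almost without a break over this stretch, and the hormone lists held only its first part. The next widest members were chr9:118397396-118399348 (1952 bp), chr2:117941784-117943585 (1801 bp) and chr17:84932130-84933883 (1753 bp, density 17.6). In all, 150 members were wider than 1000 bp.

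Members in short succession were uncommon. Within 1 kb of each other lay 700 pairs, 32 runs of 3 and 4 runs of 4 members. The longest run of 4 spanned 4258 bp at chr6:34668912-34673170, with densities of 6.63 to 15.3. The median gap from 1 member to the next was 60.3 kb.

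The Z score did not follow the density in every case. At chr17:59216196-59216587 a density of 5.87 went with the second highest Z score, 29.2. Untreated regions on both sides of it, at densities of 12.5 and 5.61, had Z scores of 20.2 and 7.88 and were also listed after Dex and Dex+E2. The other members with the highest scores were chr5:81654341-81655096 (28.7, density 17.3) and chr13:107153440-107154242 (27.8, density 16.1). The former lay 49.1 kb from any hormone-list region and the latter 2.38 kb.

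The rule keeps every member clear of all hormone-list regions, and so of the regions of all 4 lists, but sets no distance beyond that. The distance varied with the number of tags. The 3846 members with at most 15 tags lay a median of 359 kb from the nearest region of all 4 lists, and the 6973 with 16 to 20 tags 177 kb. With 21 to 25 tags the median distance was 50.8 kb, with 26 to 30 tags 21.8 kb, with 31 to 40 tags 14.9 kb and above 60 tags 8.09 kb. The share within 10 kb of such a region was 3.67% (3.12 to 4.31) at up to 15 tags and 41.0% (39.5 to 42.6) at 31 to 40 tags. By the bin medians, the 10819 members with 20 tags or fewer thus lay farther from shared regions than the 5722 with over 30 tags. The members in each tag bin depended on the Z score call, and the Z score did not follow the tags in every case. The part of the call in these distances was not tested. Tag bins were chosen after the data were examined.

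Regions found in 1 hormone list alone were also more remote when weak, and lay farther from shared regions than members in the middle of the range. At 21 to 25 tags their median distances were 101 kb for Dex, 153 kb for E2 and 108 kb for Dex+E2, against the 50.8 kb of the members. At 31 to 40 tags the distances were 16.8, 35.7 and 16.4 kb, against 14.9 kb. Untreated regions that were also in 1 or 2 hormone lists lay 82.5 kb away at up to 15 tags and 17.1 kb away at 31 to 40 tags. At 31 to 40 tags the share within 10 kb was 37.4% for those regions and 41.0% for the members. Distance to any region of the other lists differed less: 51.5% of members (50.9 to 52.1) lay within 10 kb of a hormone-list region. For regions of Dex, E2 and Dex+E2 alone the share within 10 kb of a region of the other lists was 48.2%, 53.7% and 54.2%. For these sets the other lists included the untreated list, the longest, so the regions to be near differed in number.

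Counts in windows of 1 Mb were compared next. The members had a median of 10 and at most 30 per window, and over 2568 windows their number had a Spearman rho of 0.53 (Pearson r 0.45) with the number of regions of all 4 lists. The rho was −0.13 for regions of Dex alone, −0.04 for E2 alone and 0.19 for Dex+E2 alone. For untreated regions also in 1 or 2 hormone lists it was 0.86, higher than for the members. These pooled values mix sets that differ in their tags. Within the members rho was −0.49 at up to 15 tags and 0.73 at 31 to 40 tags. In the smaller bins above that it was lower, at 0.57 (41 to 50 tags), 0.35 (51 to 60) and 0.29 (above 60). The hormone sets went the same way, with −0.28 (Dex), −0.17 (E2) and −0.21 (Dex+E2) at up to 15 tags and 0.41, 0.30 and 0.51 at 31 to 40 tags. Untreated regions also in 1 or 2 hormone lists had −0.10 and 0.72 in these bins. Windows share libraries, base composition and mappability, and these values are descriptions. The regions in each tag bin also depended on the Z score call, and its part in the change of sign was not tested. The windows with most members were 137 to 138 Mb of chromosome 1 (30 members and 24 regions of all lists) and 127 to 128 Mb of chromosome 6 (30 and 10). They were followed by 4 to 5 Mb of chromosome 11 (29 and 25) and 34 to 35 Mb of chromosome 6 (29 and 17).

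**Figure D4:**
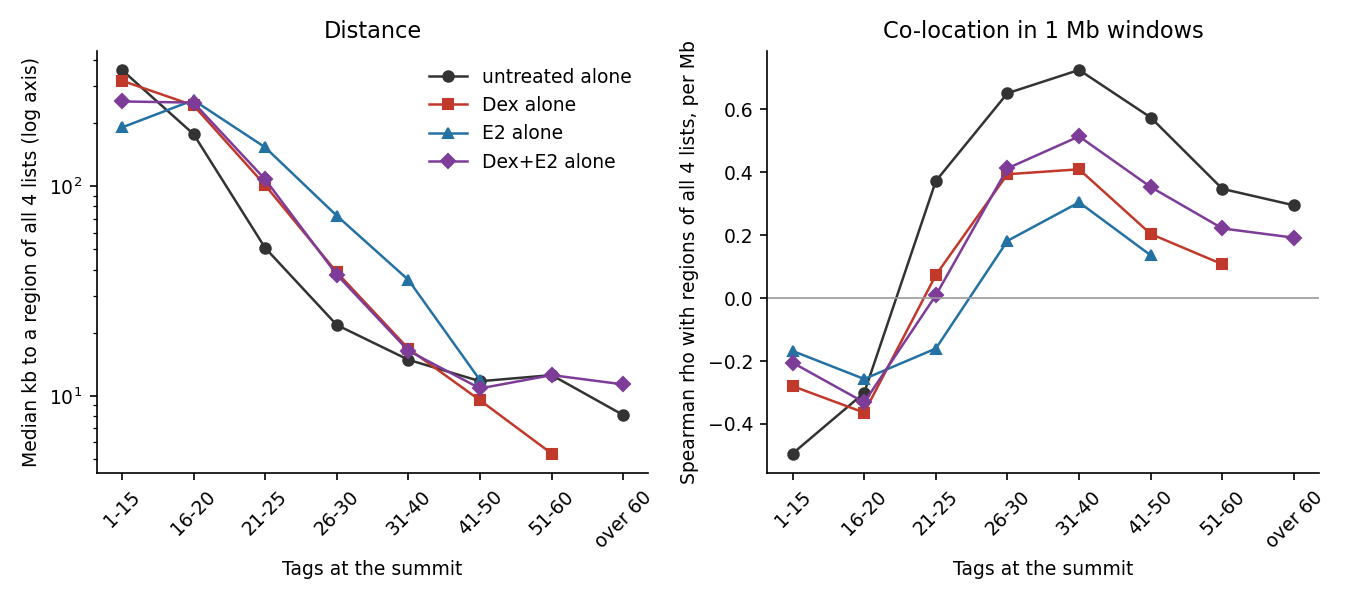
Regions found in 1 list alone, by tags at the summit (x): median distance to the nearest region of all 4 lists (left, kb, log axis) and Spearman rho of counts per 1 Mb window with the regions of all 4 lists (right). For the untreated set the distance goes from 359 kb at up to 15 tags to 8.09 kb above 60 tags. Its rho goes from −0.49 to 0.73 at 31 to 40 tags and is 0.29 above 60 tags. Bins under 20 regions are left out.

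Chromosome X held 4.40% of the members (4.16 to 4.65) and 2.48% of the regions of all 4 lists (2.28 to 2.70). Its share was as large or larger in the regions of 1 hormone list alone, at 4.95% (Dex), 4.51% (E2) and 4.86% (Dex+E2). On this chromosome 55.0% of the untreated regions were members, against 34.3% on chromosome 11. Chromosome 11 held 5.45% of the members (5.19 to 5.73) and 7.60% of the regions of all lists (7.25 to 7.97), and chromosome 7 held 5.17% and 6.61%. For chromosome 11 the hormone sets had 4.39%, 4.33% and 4.74% in the same order. Per Mb, however, the numbers of members were more even than those of shared regions. They ran from 7.27 on chromosome X to 12.3 on chromosome 11, while the shared regions ran from 3.15 to 13.2 on the same chromosomes.

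The members of chromosome X were the weakest, with a median of 13 tags (density 3.32), and 853 of the 3846 members with at most 15 tags lay there (22.2%, 20.9 to 23.5). In the same range of tags chromosome X held more of the regions of 1 hormone list alone, namely 35.0% (Dex), 29.1% (E2) and 34.1% (Dex+E2). Chromosome 14 followed with a median of 18 tags and 387 such members. The highest medians were 28 tags on chromosome 11 and 26 on chromosome 12. Over 30 tags were found in 38.9% of the members of chromosome 11 and in 2.03% of those of chromosome X. A similar order of chromosomes was seen in the regions of each hormone list alone, whose medians on chromosome X were 14 tags (Dex), 16 tags (E2) and 14 tags (both hormones). Across the 20 chromosomes, the median tags of the members had a Spearman rho of 0.97 with those of Dex alone, 0.95 with E2 alone and 0.96 with Dex+E2 alone, and of 0.90 with the median untreated density of the regions of all lists. Without chromosome X these were 0.96, 0.94, 0.96 and 0.88. The number of copies of each chromosome in this line was not given in the sources used here.

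**Figure D5:**
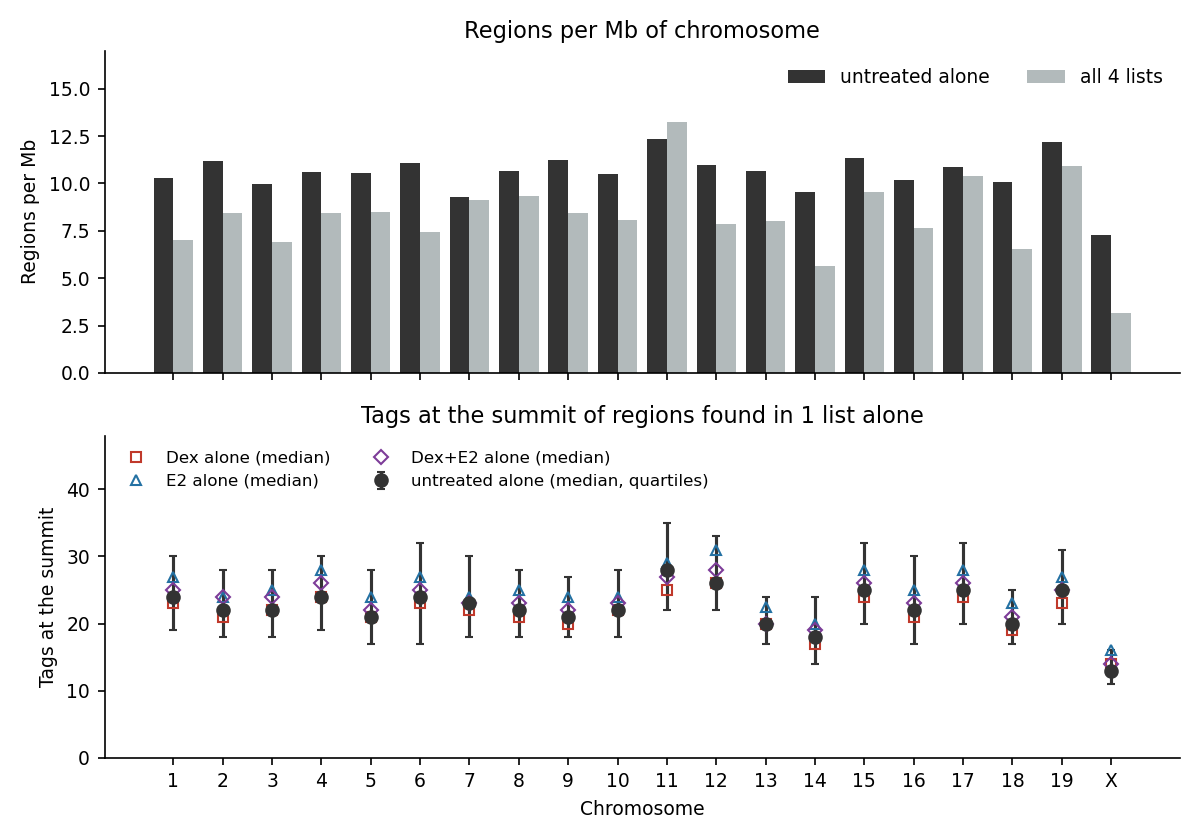
Top, regions per Mb of chromosome for the members (dark) and for the regions of all 4 lists (grey); bottom, tags at the summit of regions found in 1 list alone, as medians by chromosome, with quartiles for the members. Members per Mb run from 7.27 (X) to 12.3 (chromosome 11), and the medians of all 4 sets are lowest on chromosome X.

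The regions of all 4 lists that lay beside members were compared with the others, since they are listed in every library and their densities can be followed. Of the 20687, 1505 lay within 1 kb of a member. Their median log2 ratio of deposited density to untreated was −1.08 with Dex, −1.65 with E2 and −1.02 with both hormones, and their median untreated density was 32.1. The 5599 regions more than 50 kb from a member had −1.05, −1.56 and −0.94, and a median untreated density of 30.9. Over all 20687 the medians were −1.04, −1.56 and −0.95, so that the deposited scale placed the typical shared region lower after hormone. The near medians minus the far ones were −0.031 (Dex), −0.086 (E2) and −0.076 (Dex+E2) on the log2 scale. The SD over single regions was 0.45 to 0.60 in these groups, and no test of the difference between the medians was made.

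At the edge of the rule, 3 members lay 1 bp from a hormone-list region: chr17:28838659-28839108 (7.65), chr3:27113130-27113753 (8.93) and chr9:79457165-79457425 (5.87). The last of these borders a shared region with a density of 39.8 in untreated cells and 24.7 after Dex. Just outside the rule, the untreated regions chr1:85289335-85289944 (7.14), chr12:8525801-8526100 (9.69) and chr12:87418103-87418530 (7.91) only touched a region of the Dex+E2 list. Within 50 bp of a hormone-list region lay 163 members, and 143 further untreated regions overlapped one by at most 50 bp.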

How the data were processed

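DNase-seq libraries of untreated, Dex, E2 and Dex+E2 cells were used, 1 per condition, grouped by the treatment in the labels. Per the submitters' processing notes the build is mm9 and CASAVA 1.8 was used. Which aligner and caller were used is not stated in the labels. The lists give, per the file headers, 2 tag densities of each region, its maximum and its average, which are signal values that the authors scaled to an unstated total. They also give a Z score and a p-value per region, both deposited by the authors and the latter not used. The lowest densities showed a step in each list, of which 100% of the maxima were multiples (tolerance 0.02 tags), and this step was read as 1 tag.

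The lists were merged where regions overlapped or touched, which gave 15 presence patterns. Distances are from edge to edge. The functions recovered the planted patterns of 3000 simulated regions. In that simulation the regions of 1 site always overlapped and different sites never touched. Touching regions and small overlaps were therefore not checked by it. Members and measures were chosen with earlier results of these data known. Regions named are the 15 densest members, the 5 widest, the 5 of highest Z score, the member of several regions, the richest 1 Mb windows and 3 regions on each side of the rule; the neighbours of named regions, the 25 strong members, the runs and the tag bins were chosen after values were seen. No mm9 genome or annotation was used here, so genes, motifs and sequences were not analysed. Alternatives covered joining, overlap, list length, threshold, chromosome X and distance limits. Software was pandas 2.3.3, NumPy 2.4.6 and SciPy 1.17.1 under Python 3.11.15, with Matplotlib 3.10.9 for plots.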

Additional observations from a re-analysis of the deposited data

How the results depend on the processing

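The share of untreated-list regions in members was 40.8%. It was 39.2% with regions within 150 bp joined, 41.6% when overlap had to reach 50% of the shorter region, 40.3% without chromosome X and 36.1% with every list started at a Z score of 5.26. Equal list lengths gave 15.3% and 5432 members, and the denser 50% of each list gave 26.2% and 8643 members. Both of the latter settings remove weak untreated regions, which most members are. The equal-length setting also removes the difference in list length, since every list then holds 35496 regions. These effects were not separated. Under the other settings the members numbered 21286 to 27438, with 26851 when regions 1 bp apart were joined, a setting chosen after seeing the data. The median density of members was between 5.61 and 6.12 and their median width between 396 and 444 bp with regions joined (within 150 bp or 1 bp apart), with the higher Z score and without chromosome X. Neither was recomputed for the 50% overlap or the shortened lists. Within 1 kb of a hormone-list region lay 13.8% of members and within 50 kb 90.7%. The rho with shared regions was 0.41 in windows of 0.5 Mb, 0.60 in windows of 2 Mb and 0.52 without chromosome X, all chosen after seeing the data. The planned results on gene starts and motifs were not run, since no mm9 genome or annotation was used here. No paired analysis was possible because each condition had 1 library. The median member had 22 tags at its summit, so counting error alone limits what its absence from a list can show.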
